A study of Mus musculus with 16 samples.

Results

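HR line 8 is one of the 4 mouse lines bred for high voluntary wheel running (high runner, HR), and its vomeronasal organ (VNO) was represented by 2 of the 16 libraries of the series, a female and a male pool. The members were taken from the line label alone, and no expression value was used to choose them. They were set against the 6 libraries of HR lines 3, 6 and 7, and where stated against the 8 libraries of the non-selected Control lines 1, 2, 4 and 5. All 16 libraries came from Hsd:ICR stock mice of 12 weeks, taken at generation 88, and each was made from VNOs of 3 mice of one sex and line that were pooled before RNA extraction. No treatment is given for any group, and no engineered allele. The 4 HR lines share the selection and differ by line, so that a feature of line 8 can come from selection, drift or a founder allele, and these cannot be told apart here. The female and the male pool hold different animals, but they are 2 samples of 1 line. A p-value over libraries therefore takes pools and not lines as the unit. In the comparison with the other HR lines it measures the spread of pools within and between lines. In fits with a term for each line it measures the spread within lines alone. With 1 line against 3 an exact permutation test over lines could not go below 0.25.

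The VNO detects pheromones and other social chemosignals. Its vomeronasal sensory neurons (VSNs) form an apical layer that expresses Vmn1r receptors with the G protein subunit Gnai2, and a basal layer that expresses Vmn2r receptors with Gnao1. Part of the basal neurons also express H2-Mv genes, a family of nonclassical class I major histocompatibility genes that is largely restricted to this organ. A dissected VNO also holds supporting cells, glands that secrete odorant-binding carriers, ciliated epithelium, vessels, glia around the vomeronasal nerves, and cartilage.

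Of the genes tested, 20 differed between line 8 and the other HR lines, 11 higher and 9 lower. All 20 lay outside the values of the other 3 HR lines in both tables. Over all genes tested, 14.4% lay above and 13.4% below in this way. The same libraries gave the calls, so the position of the 20 is no separate support for them. The pools of a line resemble each other, and with line as a random effect (limma-voom) 1 of the 20, Gm1821, kept its call, while the adjusted p of the other 19 was 0.0987 to 0.793. The higher genes included Ccni, Sept11 and Sowahb, which are neighbours on chromosome 5, and H2-M10.5. Among the lower genes were Sox9 and Cdh19, 5031414D18Rik, and 2 zinc finger genes of a repeated cluster on chromosome 2. The 3 sets of sequences show where these genes sit. They are the 150 bases before the annotated start in RefSeq (GRCm38.p6), read 5′ to 3′ on the strand of the gene.

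The first set is shown because its 3 genes were raised together by about the same factor. The windows lie at chr5:93045023-93045172 on the minus strand, chr5:93093266-93093415 on the plus strand and chr5:93206496-93206645 on the minus strand. Capitals mark the letters GGGCGG or CCGCCC, the 2 strands of a GC box; CCAAT and ATTGG were also searched.
Sowahb: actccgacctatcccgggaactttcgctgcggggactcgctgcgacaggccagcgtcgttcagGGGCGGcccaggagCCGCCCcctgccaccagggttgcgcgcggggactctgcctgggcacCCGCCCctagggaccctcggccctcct
Sept11: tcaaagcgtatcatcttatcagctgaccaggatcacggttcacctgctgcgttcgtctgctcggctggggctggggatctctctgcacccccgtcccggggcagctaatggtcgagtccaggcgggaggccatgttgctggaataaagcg
Ccni: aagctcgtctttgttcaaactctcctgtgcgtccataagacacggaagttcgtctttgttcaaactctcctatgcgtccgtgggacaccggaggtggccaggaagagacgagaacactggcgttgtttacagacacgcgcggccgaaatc
The GC box letters occurred in 1 of the 3 windows and in 28.6% of 32851 promoter windows of the same length, and CCAAT occurred in 0 of the 3 and in 24.5% of all windows. The longest run of letters shared by any pair of the 3 windows was 8 bases.

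The second set shows H2-M10.5, the H2-Mv gene that passed the test, with the next by p-value, H2-M10.1 and H2-M10.4. Their windows are chr17:36772760-36772909 on the plus strand, chr17:36326151-36326300 on the minus strand and chr17:36462330-36462479 on the minus strand. In capitals is the longest run that all 6 H2-M10 windows share, CCATCAGGTCTA, searched on both strands.
H2-M10.5: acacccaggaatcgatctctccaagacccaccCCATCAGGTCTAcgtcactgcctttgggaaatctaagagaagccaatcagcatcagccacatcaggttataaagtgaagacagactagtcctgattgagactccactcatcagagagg
H2-M10.1: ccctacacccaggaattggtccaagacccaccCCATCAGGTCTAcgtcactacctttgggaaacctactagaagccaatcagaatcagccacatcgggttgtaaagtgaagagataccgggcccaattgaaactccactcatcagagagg
H2-M10.4: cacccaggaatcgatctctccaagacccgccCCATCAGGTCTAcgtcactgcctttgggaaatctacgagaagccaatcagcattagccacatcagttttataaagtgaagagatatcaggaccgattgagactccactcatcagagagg
This run of 12 bases occurred in 6 of all 32851 windows (0.0183%), and those 6 were the H2-M10 genes from which it was taken. Despite the close sequences, 96% of the 75-base windows in annotated transcripts of H2-M10.5 occurred in no transcript of another gene, 100% in H2-M10.1 and 98.7% in H2-M10.4. In the annotated transcripts, most reads of that length can thus be placed on single members of the family. The alleles of these lines were not compared, and the reads were aligned without mismatches.

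The third set shows why the zinc finger genes on chromosome 2 have to be read with care. The windows are chr2:176708203-176708352 on the plus strand, chr2:176798450-176798599 on the plus strand and chr2:177498076-177498225 on the plus strand. Capitals mark the longest run that the 3 windows share, 59 bases, which 24 of the 32851 windows hold on either strand (0.0731%).
Gm14305: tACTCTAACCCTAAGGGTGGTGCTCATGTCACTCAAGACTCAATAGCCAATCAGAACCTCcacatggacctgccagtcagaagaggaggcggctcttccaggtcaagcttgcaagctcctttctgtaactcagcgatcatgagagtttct
Gm14295: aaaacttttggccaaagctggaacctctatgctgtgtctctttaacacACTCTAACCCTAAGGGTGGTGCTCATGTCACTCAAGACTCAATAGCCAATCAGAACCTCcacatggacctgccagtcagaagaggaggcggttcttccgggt
Gm14403: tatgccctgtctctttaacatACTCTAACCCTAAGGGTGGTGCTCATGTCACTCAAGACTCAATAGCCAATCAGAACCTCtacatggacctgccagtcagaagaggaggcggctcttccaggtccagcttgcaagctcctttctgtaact
Among 75-base windows of their transcripts, 19.9% of those of Gm14305, 37.1% of those of Gm14295 and 84.3% of those of Gm14403 occurred in no other gene. Assignment of reads is therefore uncertain for Gm14305 and Gm14295.

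Levels are counts divided by the library total in units of 1e6 reads (CPM) scaled by library composition. Counts on genes were 35537930 in the female and 37511161 in the male pool of line 8, within the range of the 8 HR libraries (26301664 to 46384480). Sex and tissue were checked first. Xist, the RNA of the inactive X chromosome, was at 1164 CPM in the female library of line 8 and at 0.752 CPM in the male one. Omp, a marker of mature chemosensory neurons, was at 2521 and 2586 CPM in line 8 and at 1595 to 2322 CPM in the other HR libraries. Trpc2, the channel of VSNs, was listed at 0 counts in every library, although its deposited RPKM was 360 and 356 in line 8 and 259 to 390 in the other HR libraries; 2.5% of the 75-base windows in its transcripts occurred in no other gene, and the rest are shared with the overlapping gene Xntrpc.

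The comparison with HR lines 3, 6 and 7 asks which genes set line 8 apart from lines under the same selection. An edgeR quasi-likelihood fit with the table (1 per sex) as covariate tested 16810 genes. At an adjusted p under 0.05 it called 20 genes, 0.119% of those tested, with 0.0654% higher and 0.0535% lower. An unadjusted p under 0.05 was reached by 4.54% of genes with higher and 6.51% with lower levels. The adjusted p lay between 0.04 and 0.05 for 15 of the 20, so these calls sit close to the threshold. The count depended on single libraries. Without the female pools it was 9 (line 3), 1 (line 6), 2 (line 7) and 0 (line 8), and without the male pools 4, 1, 11 and 1. All 20 kept their direction in all 24 alternative analyses.

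**Figure D1:**
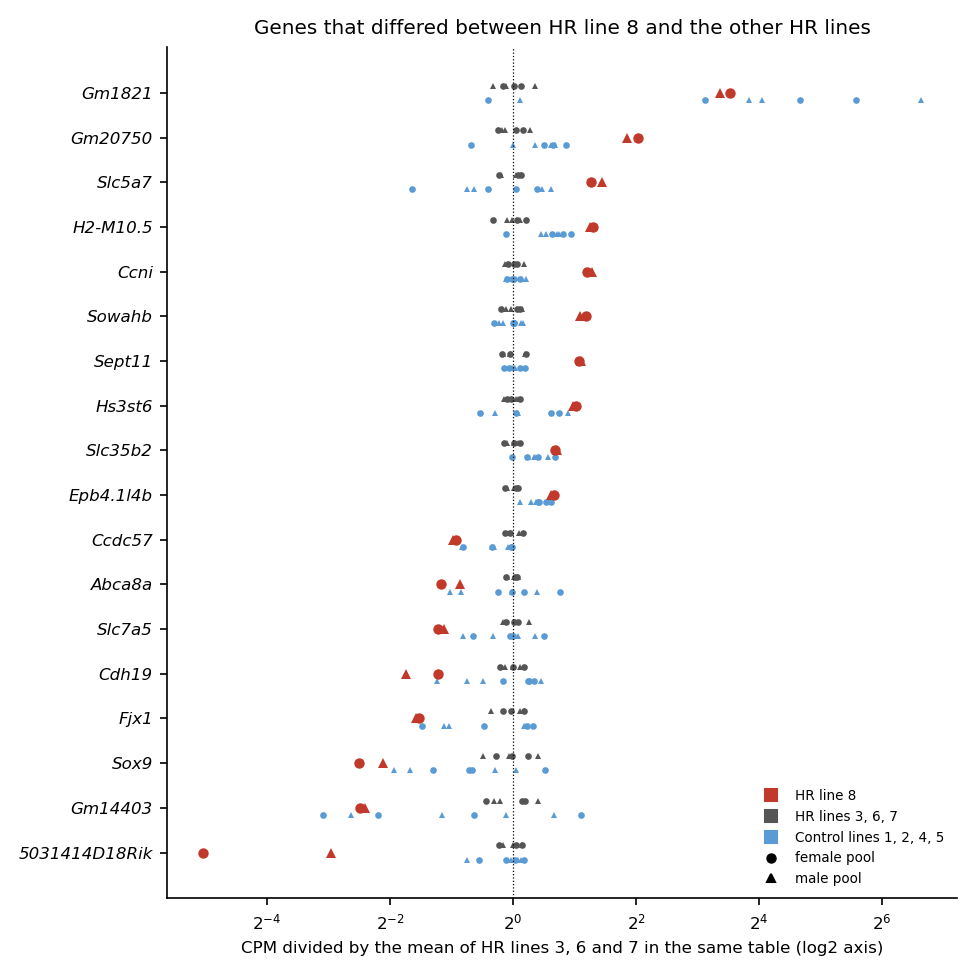
CPM of 18 of the 20 genes in each library, divided by the mean of HR lines 3, 6 and 7 in the same table (log2 axis). Red points are line 8, grey the other HR lines and blue the Control lines, circles are female and triangles male pools; Gm14305, without a count in line 8, cannot be drawn on a log axis. Both red points of each gene lie outside the grey points, and for Ccni, Sowahb, Sept11 and 5031414D18Rik far outside the blue ones too.

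The 3 adjacent genes on chromosome 5 rose together. Ccni encodes cyclin I, an atypical cyclin. It was at 831 CPM in the female and 923 CPM in the male pool of line 8, against 340, 361 and 431 CPM (lowest, median, highest) in the other HR libraries and 337, 360 and 441 CPM in the Control libraries. Each line 8 value was thus well above all 14 other libraries. The log2 fold change was 1.26 (SE 0.106, edgeR adjusted p = 0.0268).

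Sept11 encodes a septin, a GTPase of the cytoskeletal septin filaments; the tables carry its name in a date form. Its level was 347 and 361 CPM in line 8 and 145, 161 and 191 CPM in the other HR libraries, with Control libraries at 148 to 189 CPM. The groups did not overlap, and the log2 fold change was 1.10 (SE 0.123, edgeR adjusted p = 0.0492). Sowahb, which encodes an ankyrin repeat protein, was at 52 and 49.7 CPM in line 8. The other HR libraries gave 19.9, 23.3 and 25.8 CPM and the Control libraries 18.4 to 26.1 CPM, again without overlap (log2 fold change 1.15, SE 0.108, edgeR adjusted p = 0.0309).

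In GRCm38 with GENCODE M21, Sowahb spans chr5:93041123-93045022, Sept11 chr5:93093437-93176447 and Ccni chr5:93181933-93206495, so that the 3 genes lie within 165 kb with no other tested gene between them. Sowahb and Ccni are on the minus and Sept11 on the plus strand. Within 500 kb on either side, 6 other genes were tested, and none passed the test. On the Ccni side, 2010109A12Rik begins just beyond the end of Ccni and had a log2 fold change of 0.85 (SE 0.638, edgeR adjusted p = 0.554), with both pools above the other HR lines. Ccng2, the next gene, encodes cyclin G2 and had a log2 fold change of -0.22. Shroom3, on the other side, had 0.06. Beyond it, Ccdc158 had 0.31 and Stbd1 0.37. Of the 6 genes, 3 lay above and 1 below the other HR lines in both tables, beside 14.4% and 13.4% of all genes tested.

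**Figure D2:**
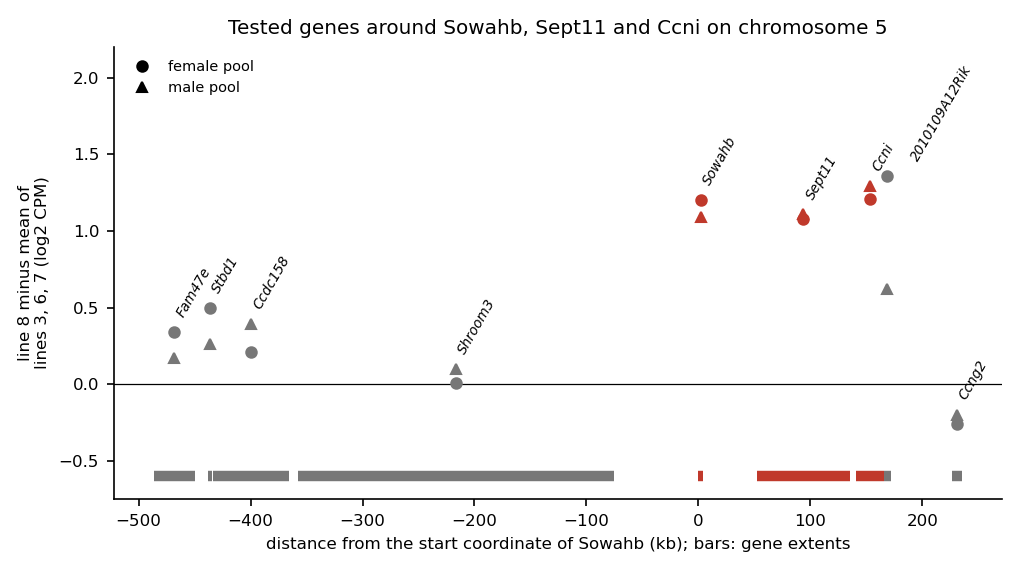
Difference of each line 8 pool from the mean of HR lines 3, 6 and 7 in its table (log2 CPM) for the 9 tested genes around Sowahb, Sept11 and Ccni, by distance in kb from the start coordinate of Sowahb; bars show gene extents. The 3 genes that passed the test (red) lie between 1.08 and 1.29 in both pools, while Shroom3 and Ccng2 lie between -0.26 and 0.10. Stbd1 and Ccdc158 lie between 0.21 and 0.5.

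Against the Control lines the same 3 genes gave log2 fold changes of 1.22 (Ccni), 1.08 (Sept11) and 1.18 (Sowahb), in a fit of all 16 libraries that compared line 8 with the 4 Control lines (edgeR adjusted p = 8.03e-06, 1.56e-05 and 4.05e-05). The other HR lines differed from the Control lines by -0.03, -0.02 and 0.04. Each line was a term of this fit, so its p-values measure the spread of the 2 pools within lines. They leave out the spread between lines. In this fit 5.23% of 17181 genes differed between line 8 and the Control lines, and 1.85% between the other HR lines and the Control lines. Both contrasts share the Control libraries. With line 8 and the Control libraries fitted alone, and no term for each line, 9 genes differed. Libraries and model both changed in that fit. In the fit of all 16 libraries the first count was 899 genes. It was 81 without the female and 154 without the male pool of line 8, 549 and 547 without those of HR line 7, 450 without the female pool of Control line 2, 585 without the male pool of Control line 4 and 1993 without the male pool of Control line 5.

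H2-Mv genes came next. H2-M10.5 (chr17:36772910-36776234) was at 188 and 196 CPM in line 8. The other HR libraries had 61, 80.7 and 88.8 CPM, and the Control libraries 71, 126 and 147 CPM. Both line 8 pools exceeded every other library (log2 fold change 1.28, SE 0.128, edgeR adjusted p = 0.0366). Line 8 was higher than the Control lines by 0.67 (edgeR adjusted p = 0.032), and the other HR lines were lower than them by a log2 fold change of -0.61 (edgeR adjusted p = 0.0191).

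Of the 9 genes of the H2-Mv list, H2-M10.5 passed the test and the others did not. The log2 fold changes of the others ran from 0.27 (H2-M10.3) to 0.88 (H2-M10.1), all positive. H2-M10.1 was at 130 and 121 CPM in line 8 and at 59.1 to 84.8 CPM in the other HR libraries (edgeR adjusted p = 0.0917). H2-M10.4 was at 95.3 and 123 CPM against 50.9 to 76.8 CPM (edgeR adjusted p = 0.129), but Control libraries reached 192 CPM, so that line 8 did not stand apart from them. Both pools of line 8 lay above the other 3 HR lines for 7 of the 9 genes (77.8%), where 14.4% of all genes tested did so. The 9 genes share one stretch (chr17:36284227-36815564) and are not independent of each other. Of 19 other tested genes within 500 kb of H2-M10.5, 9 lay above and 0 below in both tables. Among these 9 were Trim26, Ppp1r11 and Znrd1, which are outside the family. The other tested genes there from outside the family did not lie above in both. The part of the shared location was not tested. The median log2 fold change of the list was 0.70, beside 0.00 over all genes tested. Summed over the 9 genes, the level was 1148 and 1086 CPM in line 8, 520 to 849 CPM in the other HR libraries and 695 to 1305 CPM in the Control libraries, which reach the level of line 8.

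**Figure D3:**
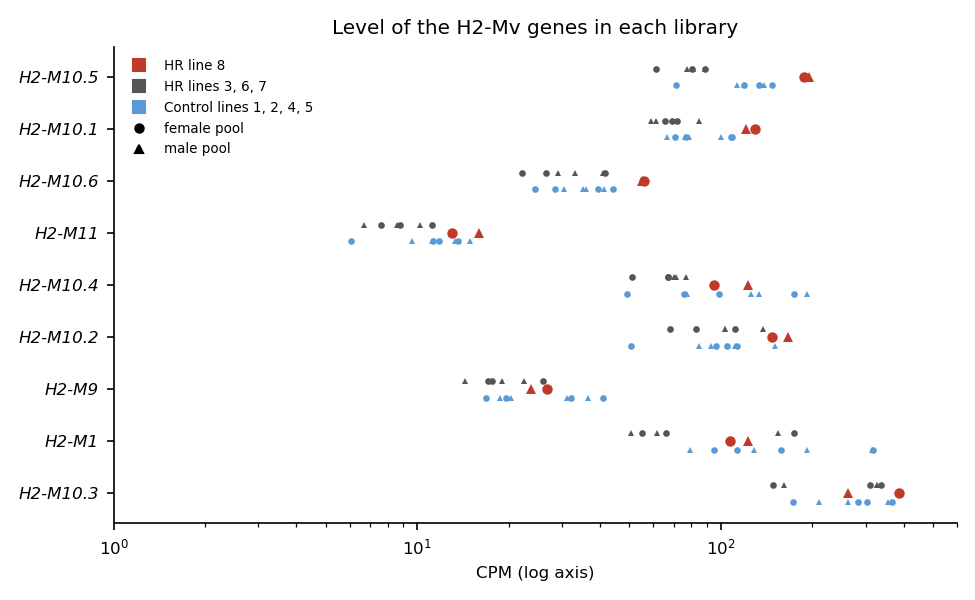
CPM (log axis) of the 9 H2-Mv genes in each library. Red points are line 8, grey the other HR lines, blue the Control lines, circles female and triangles male pools. For H2-M10.5 both red points lie at 188 and 196 CPM, above all others, whereas for H2-M1 and H2-M10.3 the groups overlap.

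Neuronal genes leaned in the same direction as the H2-Mv genes. Over the 16 tested VSN core genes, which hold signalling and structural genes of VSNs, the median log2 fold change was 0.26, and 7 genes (43.8%) were above and 1 (6.25%) below the other HR lines in both tables. In edgeR 0 passed the adjusted test, with 3 higher and 1 lower at an unadjusted p under 0.05; DESeq2 called 1 higher and 1 lower. Their summed level was 13052 and 13457 CPM in line 8 and 9166 to 12707 CPM in the other HR libraries. Gnao1 was at 511 and 456 CPM in line 8 and 320 to 464 CPM in the other HR libraries, with a log2 fold change of 0.26 (edgeR adjusted p = 0.485), and Gnai2 was at 1280 and 1330 CPM against 847 to 1409 CPM (0.37, edgeR adjusted p = 0.449). These values overlap. HR line 7 leaned the same way. Its median difference over the VSN core genes, from the mean of lines 3 and 6 in the table, was 0.16 (female) and 0.32 (male) log2 units. In line 8, set against the mean of lines 3, 6 and 7, it was 0.35 and 0.22. The references are unlike, so these values do not rank the lines. The part of the neuron level in the H2-Mv values was not tested; in bulk samples fewer cells of a type and less RNA per cell cannot be told apart.

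In edgeR 0 vomeronasal receptor genes passed the adjusted test. Of 159 tested Vmn1r genes, 50 (31.4%) lay above and 5 (3.14%) below the other HR lines in both tables, with a median log2 fold change of 0.23, and an unadjusted p under 0.05 was reached by 33 higher and 2 lower. Of 122 Vmn2r genes, 36 (29.5%) lay above and 5 (4.1%) below, with a median of 0.20 and 25 higher and 3 lower at that p. DESeq2 called 9 Vmn1r genes higher and 0 lower, and 4 Vmn2r genes higher and 1 lower; of all 16810 genes, 685 of them without an adjusted p, it called 0.744% higher and 1.58% lower. The lean of the Vmn1r genes was not particular to line 8. By the same median difference, with its unlike references, line 7 had 0.32 and 0.35 log2 units and line 8 had 0.24 in both pools. Summed over the family, line 7 had 2752 and 2910 CPM and line 8 had 2725 and 2751 CPM. Below the other HR lines in both tables were 13.4% of all genes tested. The 6 Fpr genes, formyl peptide receptors of which some are used by VSNs, had a median of 0.22, with 1 above and 0 below.

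A few receptors were further apart than the rest. In 5, both pools of line 8 were past the other HR lines by more than 1 log2 unit, and all 5 were higher. Vmn1r78 was at 2.8 and 5.88 CPM in line 8 against 0.257 to 1.79 CPM (log2 fold change 2.66, edgeR adjusted p = 0.195). Vmn1r204 was at 4.04 and 3.68 CPM against 0.424 to 1.75 CPM. The other 3 were Vmn2r40, Vmn2r41 and Vmn2r45 on chromosome 7, with log2 fold changes of 2.50, 2.91 and 4.40 and edgeR adjusted p values of 0.27, 0.324 and 0.429. Vmn2r45 ranged from 0.0211 to 7.43 CPM in the other HR libraries and from 0 to 32 CPM in the Control libraries, so its level in line 8 (7.44 and 17.5 CPM) was not outside the series. Control libraries also reached the levels of Vmn1r78, Vmn1r204, Vmn2r40 and Vmn2r41 in line 8.

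Other genes higher in line 8 belong to no fixed list. Slc5a7, the choline transporter of cholinergic nerve endings, was at 9.03 and 12.6 CPM in line 8. In the other HR libraries it was at 3.2, 4.07 and 5.05 CPM, and in the Control libraries at 1.21 to 7.11 CPM. Line 8 was the highest in each case (log2 fold change 1.37, SE 0.16, edgeR adjusted p = 0.0492). Gm20750, a long intergenic non-coding RNA on chromosome 3, was at 4.61 and 3.58 CPM against 0.872, 1.06 and 1.26 CPM in the other HR and at most 2.05 CPM in the Control libraries (1.95, SE 0.216, edgeR adjusted p = 0.0492). Hs3st6, a sulfotransferase that modifies heparan sulfate, was at 15.1 and 15.1 CPM against 6.98, 7.66 and 8.15 CPM, and the Control libraries ran up to 14.4 CPM (1.0, SE 0.122, edgeR adjusted p = 0.0492).

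For 3 further genes the other HR lines were lower than the Control lines. Slc35b2, a Golgi transporter of the sulfate donor PAPS, was at 67.5 and 77.3 CPM in line 8 against 37.9, 44.6 and 49.5 CPM in the other HR libraries, and the Control libraries were at 41.5 to 69.8 CPM. Epb4.1l4b, which encodes a FERM domain protein, was at 229 and 253 CPM against 132 to 174 CPM, with Control libraries at 179 to 245 CPM; it falls outside the rule for naming genes, so its choice followed from its values. The log2 fold changes of the other HR lines against the Control lines were -0.36 for Slc35b2 and -0.42 for Epb4.1l4b (edgeR adjusted p = 0.0233 and 0.00188).

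Gm1821 had the smallest p-value of the comparison. It is a processed pseudogene at chr14:46084028-46085000 that shares sequence with the ubiquitin gene Ubb, and 21.6% of its 75-base windows occurred in no other gene. Line 8 had 32.2 and 13.5 CPM and the other HR libraries 1.04 to 3.03 CPM, with a median of 2.09 CPM (log2 fold change 3.45, SE 0.18, edgeR adjusted p = 0.0015). The Control libraries ran from 1.42 to 133 CPM with a median of 23 CPM. Line 8 did not differ from them detectably (-0.02, SE 0.267, edgeR adjusted p = 0.975), and the other HR lines were lower (-3.48, edgeR adjusted p = 2.45e-05). These p-values leave out the spread between lines. Control line 1 was at 133 and 130 CPM, and Control line 5, at 2.1 and 1.42 CPM, was within the range of the other HR libraries. On the log2(RPKM + 1) scale the difference of Gm1821 between line 8 and the other HR lines was 1.10 and did not pass the test (limma adjusted p = 0.529, and 0.497 on log2(RPKM + 0.1)).

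Of the 20 genes, 16 also differed between line 8 and the Control lines in the fit of all 16 libraries. In the fit of line 8 and the Control libraries alone, which had no term for each line, 3 did. In 7 the other HR lines differed from the Control lines. These contrasts use libraries by which the 20 genes were chosen, so their directions are not independent of that choice. In 12 genes line 8 alone passed that test, in 3 only the other HR lines did, and in 1, Abca8a, neither did. Each line 8 pool was outside the other 7 libraries of its own table in 15 genes, 9 higher and 6 lower. Over all genes tested this held for 5.84% above and 5.03% below. The 20 genes all lay outside the other HR lines to begin with. Of the 2415 tested genes above those lines in both tables, 981 were above the Control lines too. Of the 2254 below, 846 were below the Control lines too.

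Genes lower in line 8 included 5031414D18Rik, the gene named Rubcnl in GENCODE M21 (chr14:75016027-75052532). By counts it was at 0.404 and 1.66 CPM in line 8, which are 15 and 64 reads. The other HR libraries were at 11.3, 13.4 and 14.7 CPM and the Control libraries at 7.67 to 15 CPM, with no value near those of line 8. Its log2 fold change was -3.73 (SE 0.467, edgeR adjusted p = 0.0492). The deposited RPKM did not show this difference: line 8 had 0.14 and 0.075, and the other HR libraries 0.101, 0.17 and 0.221. On the log2(RPKM + 1) or log2(RPKM + 0.1) scale it did not pass the test. The count and RPKM tables disagree for this gene, and which reads each holds was not tested.

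Sox9, a transcription factor of cartilage, gland and glial lineages, was at 2.78 and 4.07 CPM in line 8. The other HR libraries were at 12.6, 16.2 and 23.3 CPM and the Control libraries at 4.58, 9.83 and 22.6 CPM. Both pools were the lowest of their tables (log2 fold change -2.29, SE 0.285, edgeR adjusted p = 0.0492). Cdh19, a cadherin of the Schwann cell lineage, was at 6.17 and 5.75 CPM against 12.5, 17 and 20.8 CPM, and the Control libraries were at 8.18 to 26.5 CPM (-1.46, SE 0.177, edgeR adjusted p = 0.0492).

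Slc7a5, a transporter of large neutral amino acids, was at 13.8 and 19.4 CPM against 29.7, 36.1 and 50.5 CPM in the other HR and 20.6 to 54.4 CPM in the Control libraries (log2 fold change -1.16, SE 0.136, edgeR adjusted p = 0.0492). Fjx1, a secreted kinase-like protein of the Golgi, was at 4.02 and 4.07 CPM against 9.51, 12.1 and 13.8 CPM; the Control libraries came down to 4.12 CPM. Ccdc57, a coiled-coil protein gene, was at 12.7 and 11.4 CPM against 21.4 to 27.1 CPM and Abca8a, a lipid transporter, at 12.2 and 19.8 CPM against 25.3 to 38.1 CPM. Their log2 fold changes were -1.54, -0.95 and -0.99 (edgeR adjusted p = 0.0492 for each), and for Abca8a the male pool of line 8 overlapped the Control libraries, which began at 17.6 CPM.

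The zinc finger genes Gm14305 (chr2:176708328-176721813) and Gm14403 (chr2:177498215-177509763) were both lower in line 8. Gm14305 had no count in either pool of line 8 and 32 to 67 counts in each of the other HR libraries, where its median was 1.39 CPM. Set against 3 counts per library, the level that a count of 0 allows, it was at least 17.1-fold lower (edgeR adjusted p = 0.0492). The Control libraries ranged from 0 to 1.72 CPM. Its mean was below the 1 CPM asked of named genes, so that its choice followed from its values. Gm14403 was at 2.64 and 2.13 CPM in line 8 and at 9.12, 13 and 17 CPM in the other HR libraries (log2 fold change -2.44, SE 0.291, edgeR adjusted p = 0.0492), with Control libraries at 1.75 to 31.8 CPM. Gm14295, between them, also had no count in line 8 and 0.171 to 0.92 CPM in the other HR libraries, and did not pass the test (edgeR adjusted p = 0.297).

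Neighbouring genes among the 20 were counted with positions from GENCODE M21. With a distance of at most 1 Mb, 5 of the 20 had another called gene nearby, in 2 groups, the chromosome 5 genes and the pair on chromosome 2. The 3 chromosome 5 genes were the only run of at least 3.

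Several lists of other cell types lay at or near the lower end of the HR libraries in line 8. Glands and secreted carriers, the proteins that VNO glands release, come first: their 27 genes summed to 2464 and 14175 CPM in line 8, against 13719, 98403 and 194108 CPM in the other HR libraries and 11206 to 211840 CPM in the Control libraries. Line 8 was the lowest HR library in each table, but in the male table HR line 7, at 14372 CPM, was close to it, and a Control library lay below it. In line 7 the median difference over the list was -2.22 (female) and -3.26 (male), and in line 8 it was -2.11 and -2.47. Their references are unlike, so these values do not rank the lines. Line 7 was low as well, so low gland genes were not particular to line 8. In the 25 tested genes, 9 (36%) were below and 0 above the other HR lines in both tables, the median log2 fold change was -3.81, and edgeR called 0 genes, with 11 lower at an unadjusted p under 0.05; DESeq2 called 8 lower. Dmbt1, a mucin-like gland protein, was at 322 and 2019 CPM against 1920 to 28698 CPM.

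Glia genes summed to 154 and 190 CPM in line 8 and 194 to 252 CPM in the other HR libraries, and 6 of 10 genes (60%) were below them in both tables. Sox10, the transcription factor of the glial lineage, was at 5.93 and 8.19 CPM against 10.8 to 28.2 CPM (log2 fold change -1.45, edgeR adjusted p = 0.376). The myelin gene Mbp had a log2 fold change of 0.00. The endothelium and vessel wall list summed to 141 and 280 CPM against 266 to 1152 CPM, with 6 of 12 genes (50%) below. Cartilage and bone genes summed to 710 and 1106 CPM against 748 to 4500 CPM, with 2 of 18 (11.1%) below. Of all genes tested 13.4% were below in both tables, so the cartilage and bone count was no higher than that share. In edgeR 0 genes of these 3 lists passed the adjusted test, with 4, 0 and 3 lower at an unadjusted p under 0.05; DESeq2 called 3, 0 and 3 lower, where 1.58% of all genes were. Their medians were -0.45 (glia), -0.84 (endothelium and vessel wall) and -0.95 (cartilage and bone). HR line 7, set against lines 3 and 6 alone, had median differences of -0.84 and -0.80 for the endothelium list, beside -0.65 and -0.79 in line 8. Its male pool had -1.27 for cartilage, beside -0.43. For glia it had -0.08 and 0.06, beside -0.54 and -0.42. The references of the lines are unlike, so these values do not rank them. Sox9 and Cdh19 were lower in line 8, as were the medians of the glia and cartilage lists. In the male pool of line 7 the cartilage sum was below that of line 8 (748 and 1106 CPM), but Sox9 was higher (12.6 and 4.07 CPM). The part of cell composition in the values of Sox9 and Cdh19 was not tested.

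**Figure D4:**
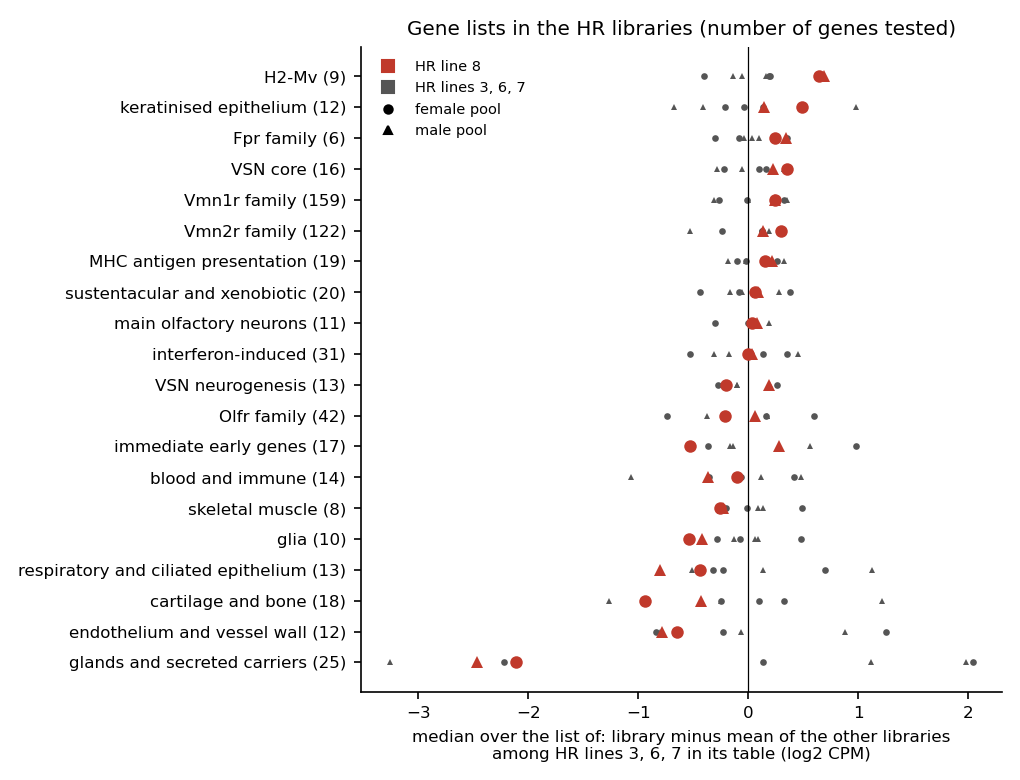
Median over each gene list of the difference of a library from the mean of the other libraries of HR lines 3, 6 and 7 in its table (log2 CPM); the number of tested genes follows the name. Red symbols are line 8, grey the other HR lines, circles female and triangles male pools. A library of lines 3, 6 or 7 is left out of its own reference, so red and grey symbols have unlike references. For H2-Mv both red symbols (0.64 and 0.69) lie right of all grey ones, and for glands they lie at -2.11 and -2.47, where grey symbols are found as well.

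The medians of the further lists were 0.04 for antigen presentation by class I and II molecules (19 genes), -0.02 for interferon-induced genes (31), 0.03 for main olfactory neurons (11), -0.09 for sustentacular and xenobiotic genes (20), -0.65 for respiratory and ciliated epithelium (13), 0.20 for keratinised epithelium (12), -0.18 for blood and immune genes (14), -0.32 for skeletal muscle (8), 0.08 for VSN neurogenesis (13), -0.06 for immediate early genes (17) and -0.31 for the Olfr family (42). Of the respiratory and ciliated genes 5 (38.5%) lay below and 0 above the other HR lines in both tables. Their median difference was -0.44 and -0.80 in line 8 and -0.32 and -0.51 in line 7. The references of these lines are unlike, so the values do not rank them. Of the sustentacular and xenobiotic genes 7 (35%) lay above and 2 (10%) below, and of the skeletal muscle genes 2 (25%) lay below. Over these 200 genes edgeR called 0, with 10 higher and 10 lower at an unadjusted p under 0.05, and DESeq2 called 3 higher and 2 lower. The medians near 0 took the other sign under other scalings, for interferon-induced genes 0.04 and for immediate early genes 0.01 with library size alone, where the median of all genes was 0.07. Within the xenobiotic list Gstp1, a glutathione transferase, was at 79.4 and 79.6 CPM in line 8 against 17.5 to 38.6 CPM (log2 fold change 1.37, edgeR adjusted p = 0.154), and one Control library had 79.1 CPM.

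The question whether both pools of line 8 were shifted alike was put to all genes. The deviation of line 8 from the mean of the other 3 HR lines correlated between the female and the male table with Pearson's r = 0.694 and Spearman's rho = 0.672 across 16810 genes, which are not independent replicates. For lines 3, 6 and 7, with deviations taken from all 4 lines of a table, r was 0.568, 0.59 and 0.615, and 0.694 for line 8. Among females, 55 genes exceeded the other HR lines by more than 1 log2 unit, and 37 of them (67.3%) were above in the male table too, as were 25.4% of all genes. For the 305 genes that far below in the female table, 178 (58.4%) were below in the male table, as were 24.2% of all genes.

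**Figure D5:**
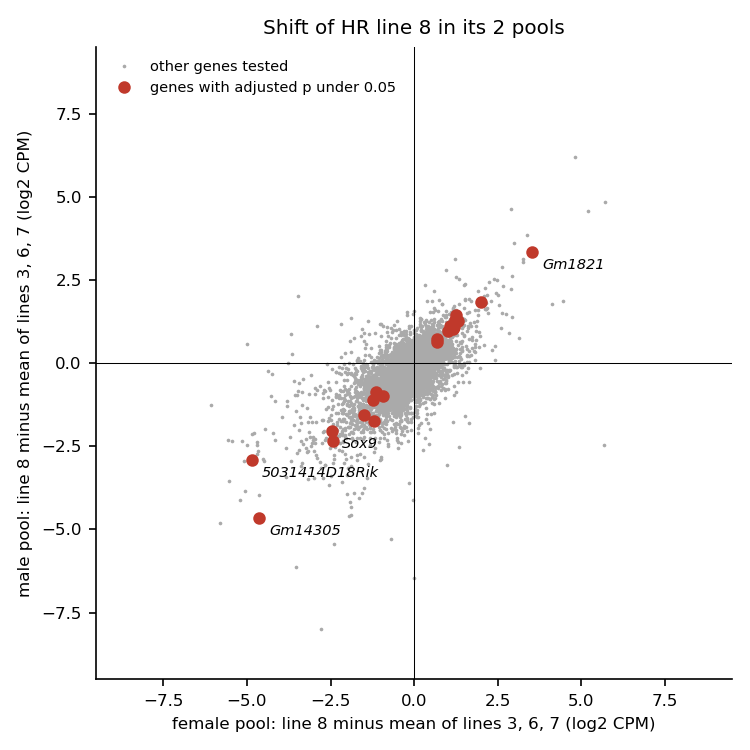
Difference of line 8 from the mean of HR lines 3, 6 and 7 (log2 CPM) in the female (x axis) and the male table (y axis), 1 point per tested gene. The 20 genes that passed the test (red) have the same sign in both tables; 5031414D18Rik, at -4.86 and -2.92, lies farthest of them from the diagonal, and Pearson's r over all 16810 genes was 0.694.

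In both tables at once, 24 genes (0.143%) were above and 63 (0.375%) below the other HR lines by more than 1 log2 unit. The same counts were 121 and 38 for line 3, 35 and 34 for line 6, and 25 and 33 for line 7. Line 8 thus had more genes far below than the other 3 lines, while its count far above was close to that of line 7. These counts were not tested. Of the 63, 39 were also below the Control lines in both tables, and of the 24, 10 were above them. Over all genes tested, 2254 lay below the other HR lines in both tables, and 846 below all 7 other lines. Above them lay 2415 and 981 genes, so the share among the 24 was near that of all genes above. The test was passed by 5 of the 24 and 6 of the 63.

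Among these genes, 4930481A15Rik, an antisense RNA on chromosome 19, was at 9.11 and 16.1 CPM in line 8 and at 0.0707, 0.169 and 0.843 CPM in the other HR libraries, with a log2 fold change of 5.45 (SE 0.708, edgeR adjusted p = 0.054). It ran up to 19 CPM in the Control libraries. Arhgap8, a GTPase-activating protein gene on chromosome 15, was at 3.53 and 3.14 CPM against 8.58, 17.4 and 19.4 CPM (-2.21, edgeR adjusted p = 0.142). Its Control libraries were at 2.97 to 4.34 CPM, so line 8 was at the Control level. Prr5, its neighbour, was at 0.593 and 0.778 CPM against 1.47 to 2.83 CPM (-1.69, edgeR adjusted p = 0.154) and the Control libraries at 0.567 to 1.97 CPM. These genes were named after their values were seen.

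Of the fixed gland list, 2 genes, Muc5b and Lcn11, were among the 63. Outside that list and named after their values were seen, Pip, the prolactin-inducible protein, was at 1.83 and 10 CPM against 27 to 187 CPM, and Azgp1, a secreted zinc-binding glycoprotein, at 0.0539 and 0.156 CPM against 1.21 to 5.9 CPM. Muc5b, a gel-forming mucin, was at 6.58 and 3.08 CPM against 16.4 to 103 CPM (log2 fold change -2.74, edgeR adjusted p = 0.427). Lcn11, a lipocalin, had a log2 fold change of -3.68 and both pools below the range of 20.9 to 695 CPM in the other HR libraries. These 4 genes did not pass the test.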

How the data were processed

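VNO RNA from 16 pools was rRNA-depleted, prepared with a directional kit and sequenced as 75-nt single reads. The authors aligned reads to GRCm38 (mm10) with STAR 2.6.1d without mismatches or multiple hits. They deposited counts per gene and, from Cuffdiff, RPKM, in 1 table per sex. The counting tool, annotation and use of strand are not given in the sources used here. In the male HR libraries 34.9 to 36.0% of reads stood in entries that name no gene and were left out.

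Both tables were joined on gene names (24407 genes with counts). HR line 8 was compared with HR lines 3, 6 and 7 in edgeR 4.0.16 (R 4.3.3): TMM scaling, filterByExpr with a minimum count of 10, table and line 8 as terms, quasi-likelihood test, Benjamini-Hochberg adjustment over all genes, threshold 0.05. Control contrasts used all 16 libraries, with table and each line as terms. The fit of line 8 and the Control libraries alone had table and line 8 as terms. Per-table positions used log2 CPM with a prior count of 2. DESeq2 1.42.0, limma 3.58.1 and other alternatives are in the closing section. Positions came from GENCODE M21 for 23972 genes, including 21 of 23 names in date form. A standard error is the log2 fold change divided by the root of F.

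Named genes were called genes outside the other HR lines in both tables with a mean of at least 1 CPM (the 10 largest changes and 5 smallest p-values in each direction), called genes of fixed lists, runs of 3 or more neighbours, and Omp, Gnao1, Gnai2, Trpc2 and the sex-linked genes; 1 of the 20 called genes is not reported here. Members, lists and tests were chosen with earlier results of these data known. The 2 pools of a line deviated together (r = 0.568 to 0.694 across genes), but the table, which is the sex, was the block of the fit. Counts differed by more than sampling noise between the 2 pools of each HR line (lowest chi-square divided by degrees of freedom 38.8) and between HR lines within a table (lowest 31.1, for the male pools of lines 7 and 8).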

Additional observations from a re-analysis of the deposited data

Results flagged for a closer look

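In 46 pairs of a named gene and a group, 3 had a library that lay far from the others by Dixon's test, where chance gives about 1 in 20. For H2-M10.5 the female pool of HR line 3 was at 61 CPM, below the 5 other libraries of lines 3, 6 and 7, and the female pool of Control line 5 was at 71 CPM, below the other Control libraries. The same Control library was the lowest for Omp, at 1263 CPM.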

How the results depend on the processing

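The 20 genes called between line 8 and the other HR lines were 20 without a filter, 19 with a minimum count of 50, 20 with the table as filter group, 25 without the replicate block (no term for the table) and 28 without both libraries of HR line 3. The count was 5 with DESeq2 size factors, 391 with DESeq2, 1 with limma-voom and line as a random effect, 10 on log2(RPKM + 1), 0 on log2(RPKM + 0.1) (1717 at an unadjusted p under 0.05), 1341 with table and 4 lines and 940 with all 16 libraries. It was 0 without both libraries of HR line 6 (1208 at an unadjusted p under 0.05, edgeR) and 193 without those of HR line 7. Another 2 scalings added after seeing the data gave 7 (library size alone) and 5 (upper quartile). Leaving out 1 library gave 0 to 11 (532 at an unadjusted p under 0.05, edgeR, for the 0). The genes outside in both pools were 5 with DESeq2 size factors, 19 with a minimum count of 50, 787 with all 16 libraries and 383 with DESeq2. All 20 genes were among the calls of DESeq2, of table and 4 lines, and of all 16 libraries. Of 480 values of the 20 genes under alternatives, 205 stayed on their side of the threshold, 275 lost the call and 0 changed sign. Line 8 differed from the Control lines in 899 genes, in 882 with DESeq2 size factors and in 9 with line 8 and the Control libraries alone; leaving out 1 library, a choice made after seeing the data, gave 81 to 1993. The fit of line 8 and the Control libraries alone also had no term for each line. The other HR lines differed from the Control lines in 318 genes, and in 145 to 323 with 1 library left out. The cause of these changes was not tested. Depth limits genes below about 1 CPM, and Gm14305 and Gm1821 share most of their sequence with other genes.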
